A study of Mus musculus with 29 samples.

Results

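Border-associated macrophages are the resident macrophages of the brain's edges. They line the meninges, the spaces around cortical vessels and the choroid plexus, and are distinct from microglia, which sit inside the tissue. They take up proteins, lipoproteins and debris from the surrounding fluid, which is reflected in their high expression of scavenger and endocytic receptors, and like other macrophages they depend on signals through the receptor Csf1r. The 9 genes described here, Mrc1, Cd163, Stab1, Lyve1, Clec10a, Folr2, Pf4, F13a1 and Cbr2, are widely used to mark these cells. They were picked by matching the Ensembl identifiers of the count files to these symbols, and all 9 were found among 25746 genes. All 9 also passed the filter on low counts, which left 17031 genes for testing.

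RNA was sequenced from cortex of 29 mice, all 3 months of age and of both sexes, in 8 groups. The groups were WT C57BL/6 mice without stroke (4 mice), Rag2-/- mice without stroke (3), NSG mice without stroke (4), stroked WT mice (4), stroked WT mice given tacrolimus from the day of stroke (WT-Tacr acute, 3), stroked WT mice given tacrolimus from 7 dpi (WT-Tacr delayed, 5), stroked Rag2-/- mice (3) and stroked NSG mice (3). Rag2-/- mice lack mature lymphocytes of the T and B lineages, NSG mice are on a NOD background and also lack NK cells, and tacrolimus, a calcineurin inhibitor that blocks T cell activation, was released from a pump under the skin. The stroke was photothrombotic, meaning that light closes vessels filled with a photosensitive dye, it was placed in the right sensorimotor cortex, and tissue was taken at 21 dpi. Non-stroked tissue is described as the contralesional site in one place and as naïve cortex in another, so it is called non-stroked here. The comparisons ask how far stroke changed these genes in each strain or treatment, and whether the strains and treatments differed from each other. The mice share the injury model but not the strain background, so a difference between NSG and WT mice cannot be assigned to the missing lymphocytes.

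Total counts ran from 17789044 to 43403413 per mouse. Sample titles mark 2 cohorts, Imm2 (20 mice, median total 37223696) and TF (9 mice, median total 23155303). All non-stroked mice were Imm2 and all delayed mice TF, so these groups share no cohort and their comparison rests on both. Stroked WT mice 1 and 2 were Imm2, stroked WT mice 3 and 4 were TF, acute mouse 1 was Imm2, and acute mice 2 and 3 were TF. No 2 libraries held the same counts. Neuronal markers (5 genes) summed to between 4045 and 7514 CPM in every mouse, as for cortex. Marker genes of the choroid plexus (8 genes) varied widely, from 5.08 to 1609 CPM in sum, with high and low mice in most groups. CPM are TMM-scaled counts relative to the library total, and a gene is called where edgeR's quasi-likelihood test gave an adjusted p below 0.05 and the log2 fold change was beyond 1. Because whole tissue was sequenced, fewer cells of a type and less RNA per cell cannot be told apart.

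None of the 9 genes belongs to border-associated macrophages alone. Lyve1 also marks lymphatic vessels, Pf4 platelets, F13a1 monocytes and platelets, Clec10a and Mrc1 dendritic cells and monocyte-derived macrophages, and Stab1 some endothelium. On GRCm38 (GENCODE M21), Mrc1 lies on chromosome 2 at 14229392 to 14332057 (+ strand), Cd163 on chromosome 6 at 124304656 to 124330527 (+), Stab1 on chromosome 14 at 31139013 to 31168641 (-), Lyve1 on chromosome 7 at 110850607 to 110863239 (-) and Clec10a on chromosome 11 at 70156197 to 70170834 (+). Folr2 lies on chromosome 7 at 101839988 to 101857194 (-), Pf4 on chromosome 5 at 90772435 to 90773383 (+), F13a1 on chromosome 13 at 36867178 to 37050244 (-) and Cbr2 on chromosome 11 at 120729489 to 120732114 (-). Stab1 overlaps Nt5dc2 on the opposite strand. The libraries were stranded, but whether counting used strand is not given in the sources used here, so the Stab1 counts may hold reads of Nt5dc2. Of the closest relatives, Clec10a shares 270 of its 3181 exonic 50-base stretches (8.49%) with Mgl2, while Folr2 with Folr1, Pf4 with Ppbp, and Stab1 with Stab2 share 0.

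Promoters were looked up for the genes because 8 of the 9 rose together after stroke in WT mice. RefSeq's table for GRCm38.p6 held 7 of them, from 250 bases before to 50 bases after the start of the transcript. The GAGGAA core bound by PU.1, the factor that specifies macrophages, was searched on both strands together with the MAF half-site TGCTGAC and the AP-1 site TGANTCA. The PU.1 core was present in 5 of the 7 promoters (Mrc1, Stab1, Pf4, F13a1 and Cbr2) against 28.3% of 32851 promoters, the MAF half-site in 1 of 7 (Cbr2) against 4.67%, and AP-1 in 0 of 7 against 7.81%. No matches overlapped. Shown are Mrc1, with 3 matches, F13a1 and Cbr2, whose levels went together most closely, and Folr2, which had the largest change and no match. Capitals mark the matches, as GAGGAA or its reverse complement TTCCTC and, in Cbr2, the reverse complement GTCAGCA of the MAF half-site. A match describes letters in this window and does not show binding.
Mrc1, chr2:14229164-14229463, + strand: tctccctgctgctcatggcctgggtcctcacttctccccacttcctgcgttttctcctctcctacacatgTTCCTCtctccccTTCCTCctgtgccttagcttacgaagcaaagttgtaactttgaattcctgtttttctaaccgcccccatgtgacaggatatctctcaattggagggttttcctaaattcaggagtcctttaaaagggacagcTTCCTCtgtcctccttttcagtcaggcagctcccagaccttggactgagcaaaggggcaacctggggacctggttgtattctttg
F13a1, chr13:37050195-37050494, - strand: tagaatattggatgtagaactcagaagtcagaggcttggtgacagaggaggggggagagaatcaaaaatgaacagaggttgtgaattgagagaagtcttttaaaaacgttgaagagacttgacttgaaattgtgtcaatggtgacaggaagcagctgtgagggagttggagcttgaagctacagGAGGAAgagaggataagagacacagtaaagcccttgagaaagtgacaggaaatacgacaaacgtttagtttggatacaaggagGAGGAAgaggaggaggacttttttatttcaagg
Cbr2, chr11:120731972-120732271, - strand: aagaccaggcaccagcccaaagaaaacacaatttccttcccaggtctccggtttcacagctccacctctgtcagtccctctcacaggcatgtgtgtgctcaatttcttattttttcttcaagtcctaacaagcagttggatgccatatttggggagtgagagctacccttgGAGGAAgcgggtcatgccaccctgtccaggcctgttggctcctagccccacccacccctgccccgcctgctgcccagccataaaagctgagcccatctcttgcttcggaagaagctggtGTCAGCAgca
Folr2, chr7:101857141-101857440, - strand: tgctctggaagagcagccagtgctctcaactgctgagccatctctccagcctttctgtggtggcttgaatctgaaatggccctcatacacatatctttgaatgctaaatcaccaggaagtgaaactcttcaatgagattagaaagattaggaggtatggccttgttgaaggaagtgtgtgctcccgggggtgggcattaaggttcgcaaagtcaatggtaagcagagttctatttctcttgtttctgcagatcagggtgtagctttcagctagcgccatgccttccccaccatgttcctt
The Mrc1 matches began at positions -180, -167 and -35 from the start site, those of F13a1 at -66 and 17, and those of Cbr2 at -79 (PU.1 core) and 40 (MAF half-site). These positions count from the RefSeq start. For Cbr2 it lies at -93 in chromosome coordinates from the GENCODE start, which on the - strand is inside the gene. Both Cbr2 matches thus lie inside the gene as GENCODE places it.

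In non-stroked WT cortex all 9 genes were detected at low levels. Per kilobase of exon, Stab1, a scavenger receptor for modified lipoproteins and extracellular matrix fragments, stood highest with a mean of 1.52 CPM per kb, followed by Mrc1, the mannose receptor, with 0.484. Pf4, Cbr2, Lyve1, F13a1, Cd163, Folr2 and Clec10a followed, down to 0.106 CPM per kb for Clec10a. In stroked WT cortex Stab1 (4.15) and Mrc1 (1.43) were again highest, Folr2 moved from rank 8 to rank 5 (0.723), and Lyve1 moved from rank 5 to rank 9 (0.346). Mean levels were highest in WT-Tacr delayed mice for 9 of 9 genes and lowest in non-stroked WT mice for 6 of 9. All delayed mice were TF and all non-stroked WT mice Imm2, and the matching shares of all genes are not given here. In this order of 8 groups most neighbours overlapped: for Mrc1 the order was delayed, stroked NSG, stroked WT, stroked Rag2-/-, acute, non-stroked NSG, non-stroked Rag2-/- and non-stroked WT mice, and only stroked Rag2-/- and acute mice did not overlap.

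**Figure D1:**
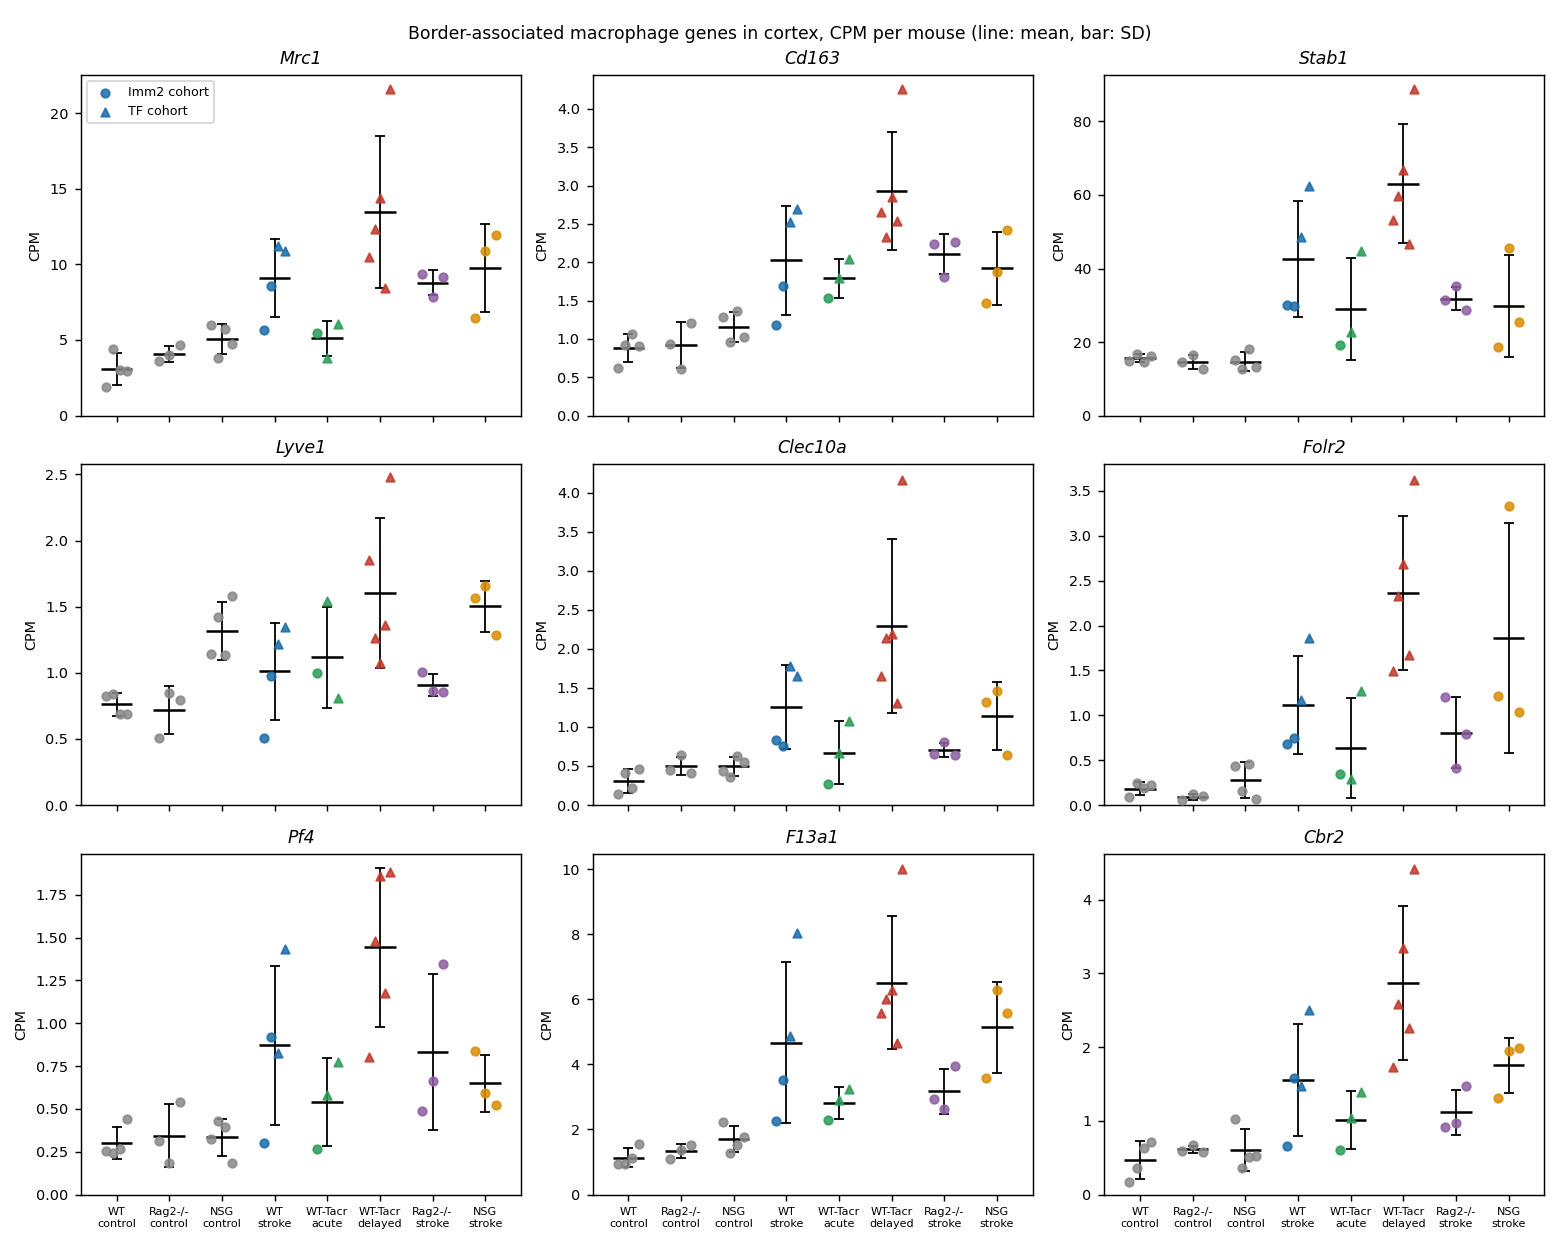
Level of each of the 9 genes in CPM (vertical axes, starting at 0) in the 8 groups, with 1 point per mouse, circles for the Imm2 and triangles for the TF cohort, lines at group means and bars of 1 SD. The delayed mice (red), all of the TF cohort, hold the highest mean for 9 of 9 genes, and the triangles of stroked WT mice (blue) sit above the circles for 7 of 9.

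Without stroke none of these genes was called between the strains. Of the 9, 0 were called between non-stroked NSG and WT mice, where 3.36% of all genes tested were called in either direction. DESeq2 also called 0, and 2 had an unadjusted p under 0.05. These were Lyve1, a hyaluronan receptor, and Mrc1. Lyve1 measured 1.14, 1.42, 1.13 and 1.58 CPM in NSG mice and 0.826, 0.843, 0.689 and 0.687 CPM in WT mice. The ranges did not overlap, but the log2 difference of 0.79 ± 0.274 (SE) had an adjusted p of 0.0700. Mrc1 was 0.71 ± 0.273 higher on the log2 scale in NSG mice (adjusted p = 0.104), with ranges of 3.81 to 5.97 and 1.91 to 4.43 CPM. Other fits gave smaller values. The smallest adjusted p of the 9 genes was 0.0292 within Imm2, 0.0229 with only the groups compared and 0.0498 with DESeq2. Any gene below 0.05 in these fits stayed under the fold limit and was not called. Between non-stroked Rag2-/- and WT mice edgeR and DESeq2 each called 0 of 9, 0 had an unadjusted p under 0.05, and 0.00587% of all genes were called. Folr2, a folate receptor, was at 2, 4 and 3 counts in Rag2-/- mice against 3 to 9 counts in WT mice (fitted fold 0.501, adjusted p = 1). Between non-stroked NSG and Rag2-/- mice 0 of 9 were called by either tool, against 2.8% of all genes, 1 had an unadjusted p under 0.05 (Lyve1), and Folr2 differed by 1.57 ± 0.788 (adjusted p = 0.294). Within Imm2 the smallest adjusted p of the 9 in edgeR was 0.041, again with 0 called.

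After stroke in WT mice 8 of the 9 genes rose and Lyve1 did not pass the test. Over all genes tested 6.76% were called higher. The median log2 fold change of the 9 was 1.55, against a median of 0 over all genes. Ranges did not overlap for 6 of 9, against 16.3% of all genes. Among the endocytic receptors, Mrc1 measured 1.91, 4.43, 3.02 and 2.97 CPM without stroke and 5.68, 8.56, 11.2 and 10.9 CPM after it. Every stroked mouse lay above every control, and the 2 TF mice above the 2 Imm2 mice. The log2 fold change was 1.55 ± 0.273 (adjusted p = 0.000241). Cd163, the haemoglobin-haptoglobin receptor, went from 0.626, 0.925, 1.06 and 0.907 CPM to 1.19, 1.70, 2.52 and 2.69 CPM (1.19 ± 0.259, adjusted p = 0.00177). Again the groups did not overlap, although the lowest stroked mouse was close to the highest control. Stab1 went from 14.6 to 16.8 CPM over the 4 controls to 30.2, 29.7, 48.6 and 62.4 CPM (1.45 ± 0.270, adjusted p = 0.000422).

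Lyve1 was the exception in WT mice. It measured 0.826, 0.843, 0.689 and 0.687 CPM in controls and 0.505, 0.972, 1.22 and 1.34 CPM in stroked mice. Stroked mouse 1 had the lowest level of all 8 mice, and the log2 fold change was 0.39 ± 0.280 (adjusted p = 0.309). Within the Imm2 cohort alone it was -0.04. Lyve1 is shared with lymphatic vessels, whose 6 markers summed to 156 to 171 CPM in controls and 140 to 211 CPM in stroked mice, with 2 of the 5 tested called higher. Of these markers, Ccl21a and Mmrn1 had at most 3 counts in every control, and Ccl21a also in every stroked mouse. The sums thus came from Prox1, Flt4, Pdpn and Reln, and how far these are particular to lymphatic vessels was not tested. The part of lymphatic vessels in the level of Lyve1 was not tested either.

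The lectin Clec10a, which binds galactose-type sugars, and Folr2 had the largest changes with F13a1. Clec10a went from 0.142, 0.408, 0.212 and 0.467 CPM to 0.833, 0.750, 1.78 and 1.65 CPM, without overlap (1.99 ± 0.434, adjusted p = 0.00171). Its relative Mgl2, with which it shares some sequence, was 1.08 ± 0.515 higher and was not called (adjusted p = 0.120). Folr2 went from 0.0854, 0.245, 0.186 and 0.220 CPM to 0.682, 0.750, 1.17 and 1.86 CPM, also without overlap (2.56 ± 0.570, adjusted p = 0.00207). It rested on few reads, 27 over the controls and 142 over the stroked mice, which alone gives a ratio of 5.85 with an exact 95% interval of 3.85 to 9.18 for counting error. Its relative Folr1 did not move with it (log2 fold change -0.59, adjusted p = 0.701).

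The secreted proteins and the enzyme rose as well. F13a1 encodes the A subunit of coagulation factor XIII, which cross-links fibrin, and went from 0.940, 0.925, 1.11 and 1.57 CPM to 2.25, 3.53, 4.87 and 8.03 CPM (2.03 ± 0.311, adjusted p = 7.1e-05), the smallest p of the 9. Cbr2, a carbonyl reductase, went from 0.171, 0.354, 0.636 and 0.715 CPM to 0.656, 1.58, 1.48 and 2.51 CPM (1.71 ± 0.410, adjusted p = 0.00369). The chemokine Pf4 went from 0.256, 0.245, 0.265 and 0.440 CPM to 0.303, 0.917, 0.826 and 1.44 CPM (1.51 ± 0.440, adjusted p = 0.0138). For both Cbr2 and Pf4, stroked mouse 1 fell within the control range. Without stroked mouse 4 Pf4 was at 1.15 (adjusted p = 0.0871) and 7 of 9 genes were called. The 7 platelet markers summed to 295 to 354 CPM in controls and 155 to 356 CPM in stroked mice, and the ranges overlapped. Of these, Ppbp and Gp1ba had 0 counts in every stroked WT mouse and at most 3 in every control. The sums thus came from the other markers, and 0 of 4 platelet genes tested were called. The part of platelets in the level of Pf4 was not tested.

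The cohort touched these values. In stroked WT mice the TF mean was above the Imm2 mean for 9 of 9 genes, by 1.55 to 2.23 times, and every TF mouse was above every Imm2 mouse for 7 of 9, against 34.1% of all genes. With the 2 Imm2 mice alone, 3 of 9 genes were called (Mrc1, Clec10a and F13a1), and with cohort as a covariate 4 (these and Folr2). Both Imm2 mice lay above every control for 6 of 9 genes, against 22.9% of all genes. Neuronal sums in stroked WT mice were 6238 and 6040 CPM in Imm2 and 4470 and 4929 CPM in TF. What sets the cohorts apart was not tested.

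**Figure D2:**
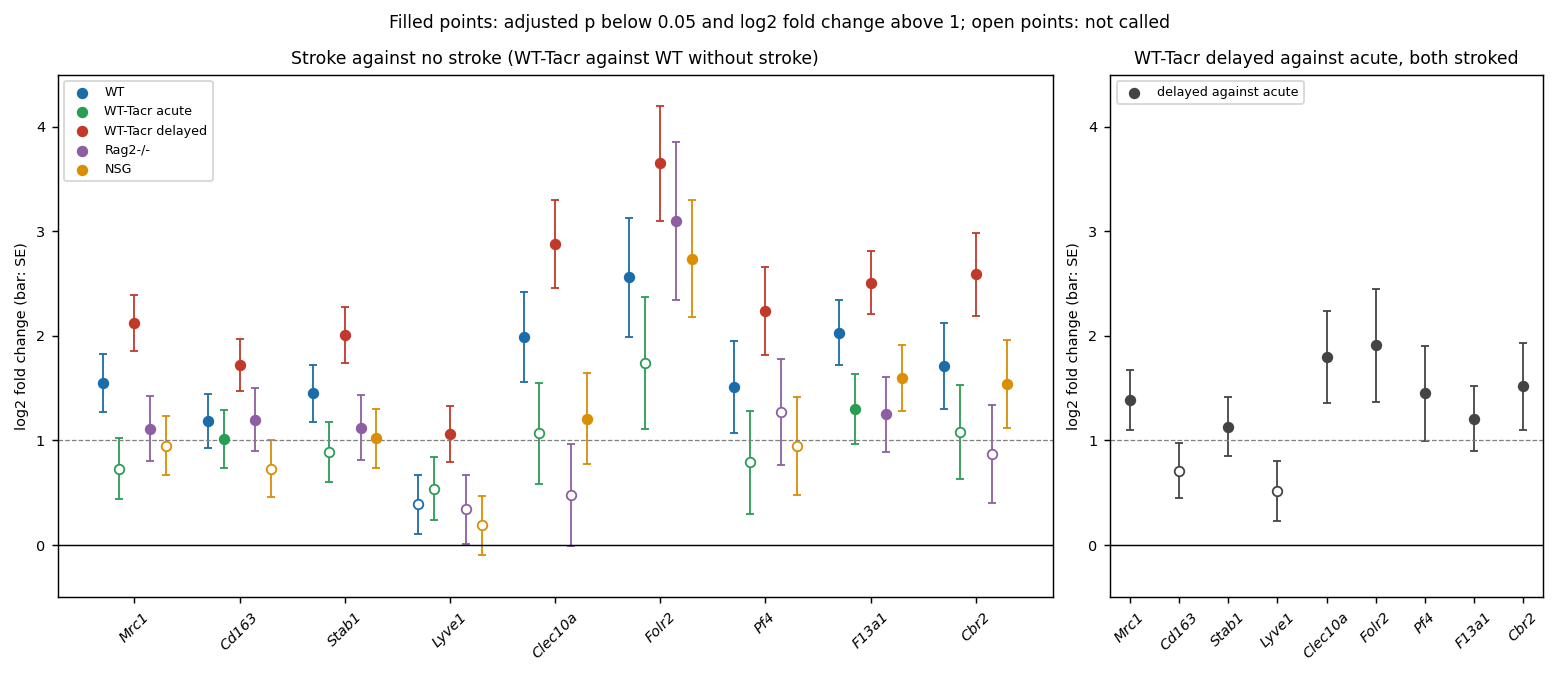
Log2 fold change (vertical axis, bars of 1 SE) of each gene against non-stroked mice in 5 stroked groups (left) and between delayed and acute tacrolimus (right), with filled points for called genes and a dashed line at 1. Folr2 has the highest point and Lyve1 the lowest in each of the 5 stroked groups, and every point lies above 0.

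Other cells of the tissue changed beside these genes. A list of 12 general macrophage genes was called higher for 12 of 12 in stroked WT mice, with sums of 254 to 301 CPM without stroke and 855 to 1113 CPM with it, and 9 of 10 genes of lesion phagocytes, 6 of 8 monocyte genes and 3 of 10 microglia genes were called higher. Meningeal fibroblast genes summed to 459 to 652 CPM in controls and 1308 to 1671 CPM in stroked mice, with 5 of 10 called higher. Dendritic cell genes gave 1 of 5 called, lymphatic genes 2 of 5, and red cell, neuron, astrocyte and choroid plexus genes 0 of 5, 0 of 5, 0 of 5 and 0 of 8. Although 0 neuronal genes were called, their sums were lower after stroke. They were 6745 to 7514 CPM in controls and 4470 to 6238 CPM in stroked mice, without overlap. Choroid plexus sums were 10.7 to 827 CPM in controls and 14.9 to 267 CPM in stroked mice and overlapped. The part of these cells in the result for the 9 genes was not tested.

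In Rag2-/- mice 5 of the 9 genes rose, against 4.22% of all genes called higher. Mrc1 measured 3.60, 4.01 and 4.64 CPM without stroke and 9.38, 7.84 and 9.16 CPM after it (1.11 ± 0.311, adjusted p = 0.0259). Cd163 went from 0.934, 0.608 and 1.21 CPM to 2.24, 1.80 and 2.27 CPM (1.20 ± 0.298, adjusted p = 0.0126), Stab1 changed by 1.12 ± 0.311 and F13a1 by 1.25 ± 0.356. Folr2 went from 0.0566, 0.122 and 0.0953 CPM to 1.21, 0.416 and 0.797 CPM (3.10 ± 0.752, adjusted p = 0.0104), that is from 9 to 83 counts in all, a ratio of 8.88 with an exact 95% interval of 4.46 to 20.1. The other 4 genes were higher by 0.34 (Lyve1), 0.48 (Clec10a), 0.87 (Cbr2) and 1.27 (Pf4) and were not called. Ranges did not overlap for 8 of 9 genes, against 18.8% of all genes.

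The count in Rag2-/- mice rested on few animals. It was 0 without stroked mouse 1, 4 without stroked mouse 2 and 3 without stroked mouse 3, and 1, 1 and 2 without non-stroked mice 1, 2 and 4. What share of all genes was called in each of these fits is not given here. Whether the falls are particular to the 9 genes was therefore not tested. Without stroked mouse 1 the values moved little, with Mrc1 at 1.06 (adjusted p = 0.105), Cd163 at 1.15 (adjusted p = 0.0566) and Folr2 at 2.68 (adjusted p = 0.0745). This mouse had a choroid plexus sum of 1609 CPM, against 13.3 and 11.2 CPM in the other two stroked mice and at most 13.2 CPM in the controls. Stroked mouse 1 lay above every Rag2-/- control for 8 of 9 genes, against 37.7% of all genes. Mice 2 and 3 did so for 9 of 9, against 33.1% and 35.8% of all genes.

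In NSG mice 5 of 9 genes rose, against 5.01% of all genes called higher. Stab1, Folr2 and F13a1 were called in NSG as in Rag2-/- mice, and Clec10a and Cbr2 were called here. F13a1 went from 2.22, 1.27, 1.53 and 1.76 CPM to 3.57, 6.28 and 5.57 CPM (1.60 ± 0.317, adjusted p = 0.00114). Cbr2 went from 1.02, 0.356, 0.510 and 0.526 CPM to 1.32, 1.95 and 1.99 CPM (1.54 ± 0.421, adjusted p = 0.0115). Folr2 went from 0.439, 0.152, 0.454 and 0.0619 CPM to 1.22, 3.34 and 1.04 CPM (2.74 ± 0.557, adjusted p = 0.00138). All 3 were separate from their controls. Clec10a (1.21 ± 0.436, adjusted p = 0.0473) and Stab1 (1.02 ± 0.285, adjusted p = 0.0126) were close to the limits of the call. Clec10a missed it under RLE scaling (adjusted p = 0.0503) and without stroked mouse 1 or 2 or any 1 control, and Stab1 was at 0.58 without stroked mouse 2. Mrc1 was at 0.95 ± 0.282 (adjusted p = 0.0186), just under the fold limit, and passed it without stroked mouse 1 or without control 1 or 3, at 1.01 to 1.16. Cd163 (0.73), Pf4 (0.95) and Lyve1 (0.19) were not called. The count fell to 3 without stroked mouse 2 and without controls 2 or 4. Ranges did not overlap for 8 of 9 genes, against 13.6% of all genes.

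The strains were also compared directly, and no difference passed the test. The response to stroke in Rag2-/- mice minus that in WT mice gave 0 of 9 calls by edgeR and by DESeq2 (0% of all genes by edgeR), and 1 gene had an unadjusted p under 0.05. This was Clec10a, whose response was lower by -1.51 ± 0.656 on the log2 scale (adjusted p = 0.9501), and by -0.77 with cohort as a covariate and -0.86 within Imm2. In NSG mice the same difference gave 0 of 9 calls by both tools (0.0117% of all genes), with 0 genes under an unadjusted p of 0.05 and Clec10a at -0.78 ± 0.617. It was negative for 8 of 9 genes with both cohorts and for 3 of 9 within the Imm2 cohort. Between stroked Rag2-/- and stroked WT mice 0 of 9 were called by both tools (0.00587% of all genes) and 0 had an unadjusted p under 0.05. Fitted values were negative for 8 of 9 genes with both cohorts and for 1 of 9 within the Imm2 cohort, to which all Rag2-/- mice belong. Between stroked NSG and stroked WT mice 0 of 9 were called by both tools (3.26% of all genes), and 0 had an unadjusted p under 0.05, Lyve1 coming closest at 0.59 ± 0.289 (adjusted p = 0.176). Here fitted values were positive for 5 of 9 genes with both cohorts and for 8 of 9 within the Imm2 cohort, which holds all NSG mice. The smallest adjusted p of the 9 within Imm2 was 0.0560 in edgeR, with 0 called.

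With tacrolimus from the day of stroke only 2 of 9 genes were called against non-stroked WT mice, where 2.28% of all genes were called higher. F13a1 measured 2.29, 2.91 and 3.25 CPM in acute mice 1, 2 and 3 (1.30 ± 0.332, adjusted p = 0.0209) and Cd163 1.53, 1.79 and 2.05 CPM (1.01 ± 0.278, adjusted p = 0.0280). Both were separate from the 4 controls. The other 7 were higher by 0.54 to 1.74 and were not called, with Folr2 at 1.74 ± 0.630 (adjusted p = 0.0784) and Mrc1 at 0.73 ± 0.294 (adjusted p = 0.111). Mrc1 measured 5.48, 3.79 and 6.03 CPM in acute mice, and mouse 2 fell within the control range. Ranges did not overlap for 4 of 9, against 10.4% of all genes. Acute mouse 3 was highest of the 3 for 8 of 9 genes, with Stab1 at 44.7 CPM against 19.1 and 22.8 CPM. The count of calls was 6 without acute mouse 1, 0 without acute mouse 2 or 3, 0 without control 1 or 3 and 1 without control 5. It was also 0 with cohort as a covariate. Acute mouse 1, the only acute mouse of the Imm2 cohort, lay within the range of the 4 controls for Pf4 (0.268 CPM), Clec10a (0.268 CPM) and Cbr2 (0.6085 CPM).

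With tacrolimus from 7 dpi 9 of 9 genes were called higher than in non-stroked WT mice, against 11.5% of all genes, and 9 of 9 had separate ranges, against 26.5% of all genes. Folr2 measured 1.49, 2.33, 2.69, 1.68 and 3.62 CPM in delayed mice 1 to 5 (3.65 ± 0.552, adjusted p = 1.03e-05). Clec10a measured 1.65, 2.14, 2.19, 1.31 and 4.17 CPM (2.88 ± 0.420, adjusted p = 6.96e-06). Mrc1 measured 10.5, 12.3, 14.4, 8.46 and 21.6 CPM (2.12 ± 0.268, adjusted p = 1.42e-06). Delayed mouse 5 was highest for 9 of 9 genes. Cbr2 (2.59), F13a1 (2.51), Pf4 (2.24), Stab1 (2.01) and Cd163 (1.72) rose as well. Lyve1, not called in the other 4 stroked groups, passed here, at 1.85, 1.26, 1.08, 1.36 and 2.48 CPM (1.06 ± 0.266, adjusted p = 0.00167), and without delayed mouse 5 it was at 0.86, under the fold limit, leaving 8 of 9 genes called. All delayed mice were TF and all controls Imm2, so this is also a comparison between cohorts. With cohort as a covariate, which takes its size from the stroked WT and acute mice of both cohorts, 6 of 9 genes were called and the median log2 fold change was 1.58 instead of 2.24. Lyve1 was then at 0.50 (adjusted p = 0.438), Pf4 at 1.19 (adjusted p = 0.198) and Clec10a at 1.58 (adjusted p = 0.0553).

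Compared with each other, the delayed mice had higher levels than the acute mice. In the fit of all groups 7 of 9 genes were called, against 5.22% of all genes, and 8 of 9 had separate ranges, against 8.81% of all genes. The differences were 1.39 ± 0.288 for Mrc1 (adjusted p = 0.0102), 1.13 ± 0.283 for Stab1, 1.80 ± 0.440 for Clec10a (adjusted p = 0.0117), 1.91 ± 0.543 for Folr2, 1.45 ± 0.452 for Pf4, 1.21 ± 0.315 for F13a1 and 1.52 ± 0.417 for Cbr2. Cd163 (0.71, adjusted p = 0.0558) and Lyve1 (0.52, adjusted p = 0.195) were not called. The number of calls depended on single mice and on the fit. It was 0 without acute mouse 1, 0 without acute mouse 2, 3 without delayed mouse 5, 0 within the TF cohort (adjusted p of 0.159 to 0.419) and 0 with the 2 groups fitted alone (adjusted p of 0.0741 to 0.260). Without acute mouse 1 the 7 genes were at 0.89 (Stab1) to 1.56 (Folr2), and without acute mouse 2 at 0.98 (Stab1) to 1.81 (Clec10a). The shares of all genes called in these fits are not given here, so whether the falls are particular to the 9 genes was not tested. Fitted values were positive for 9 of 9 genes with cohort as a covariate (3 called), within TF and with the 2 groups alone. Within TF, where 2 acute and 5 delayed mice remain, every delayed mouse was above both acute mice for 8 of 9 genes, against 10.5% of all genes, and Mrc1 differed by 1.48 ± 0.363.

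Choroid plexus genes moved with this contrast. Their sum was 5.08 to 25.0 CPM in acute mice and 619, 18.6, 876, 855 and 836 CPM in delayed mice 1 to 5, and 4 of 8 were called higher. Delayed mouse 2, with the sum of 18.6 CPM, was above every acute mouse for 8 of 9 genes, against 23.4% of all genes. The other 4 delayed mice were so for 8 or 9 of 9 genes, against 22.5% to 32.6% of all genes. Meningeal fibroblast genes summed to 669 to 1303 CPM in acute mice and 1257 to 2909 CPM in delayed mice, with 5 of 10 called higher, and 10 of 12 general macrophage genes were called higher. Neuronal genes summed to 5213 to 7435 CPM in acute mice and 4045 to 4951 CPM in delayed mice, without overlap. The part of choroid plexus, meningeal and neuronal tissue in the difference was not tested.

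No difference between a tacrolimus group and stroked WT mice passed the test. For acute mice edgeR and DESeq2 called 0 of 9 (0% of all genes by edgeR), and 2 genes, Mrc1 and F13a1, had an unadjusted p under 0.05. Fitted values were negative for 8 of 9 and ran from -0.92 to 0.15 on the log2 scale (adjusted p of 0.311 to 0.875), and 1 gene was called without acute mouse 3. Within the TF cohort both WT mice were above both acute mice for 7 of 9 genes, against 18.8% of all genes. For delayed mice edgeR again called 0 of 9 (0% of all genes), DESeq2 gave the genes no adjusted p, 7 genes had an unadjusted p under 0.05, and fitted values were positive for 9 of 9 (0.48 to 1.08, adjusted p of 0.178 to 0.312). Within TF the delayed and WT mice overlapped for 9 of 9 genes.

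A further list of 24 genes linked to border-associated macrophages, of which 22 were tested, also had genes called higher in each stroked group. In the fit of all groups the count for this list was no higher in WT than in NSG mice, where the 9 genes gave 8 and 5 calls. Within Imm2, the cohort of all NSG mice, the 9 genes gave 3 calls in WT and 5 in NSG mice. In stroked WT mice 12 of 22 were called higher and 0 lower, against 6.76% of all genes called higher, with a median log2 fold change of 1.18. In Rag2-/- mice it was 10, in NSG mice 13, in acute mice 6 and in delayed mice 14 of 22, with 0 lower in each. The shares of all genes called higher were 4.22%, 5.01%, 2.28% and 11.5%. Between delayed and acute mice it was 12 of 22, against 5.22% of all genes. Siglec1, a sialic acid receptor of macrophages, rose from 0.210 ± 0.129 (SD, n = 4) to 4.39 ± 2.76 CPM (n = 4) in WT mice, a log2 fold change of 4.34 ± 0.740. Ms4a7, a membrane protein of macrophages, rose from 0.233 ± 0.0813 to 5.38 ± 2.50 CPM. Colec12, a scavenger receptor, rose from 8.77 ± 1.12 to 20.5 ± 3.31 CPM. The chemokine Ccl8 had at most 3 counts in every control and a mean of 1.33 ± 0.671 CPM after stroke. Without stroke, Ccl24 was higher (1.63 ± 0.492) and Hpgd lower (-1.18 ± 0.278) in NSG than in WT mice. Of 10 other scavenger receptors 9 were tested and 5 rose in WT mice, with Cd36, a receptor for oxidised lipoproteins, going from 0.267 ± 0.0564 to 4.48 ± 2.80 CPM (SD, n = 4 each). Genes of alternative activation rose for 2 of 8 (Il1rn and Il4ra) and fell for 1 (Egr2), and of 8 genes of the Csf1 axis 4 rose, among them Csf1r itself with 1.05 ± 0.121 and Spi1, which encodes PU.1, with 1.31 ± 0.236.

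**Figure D3:**
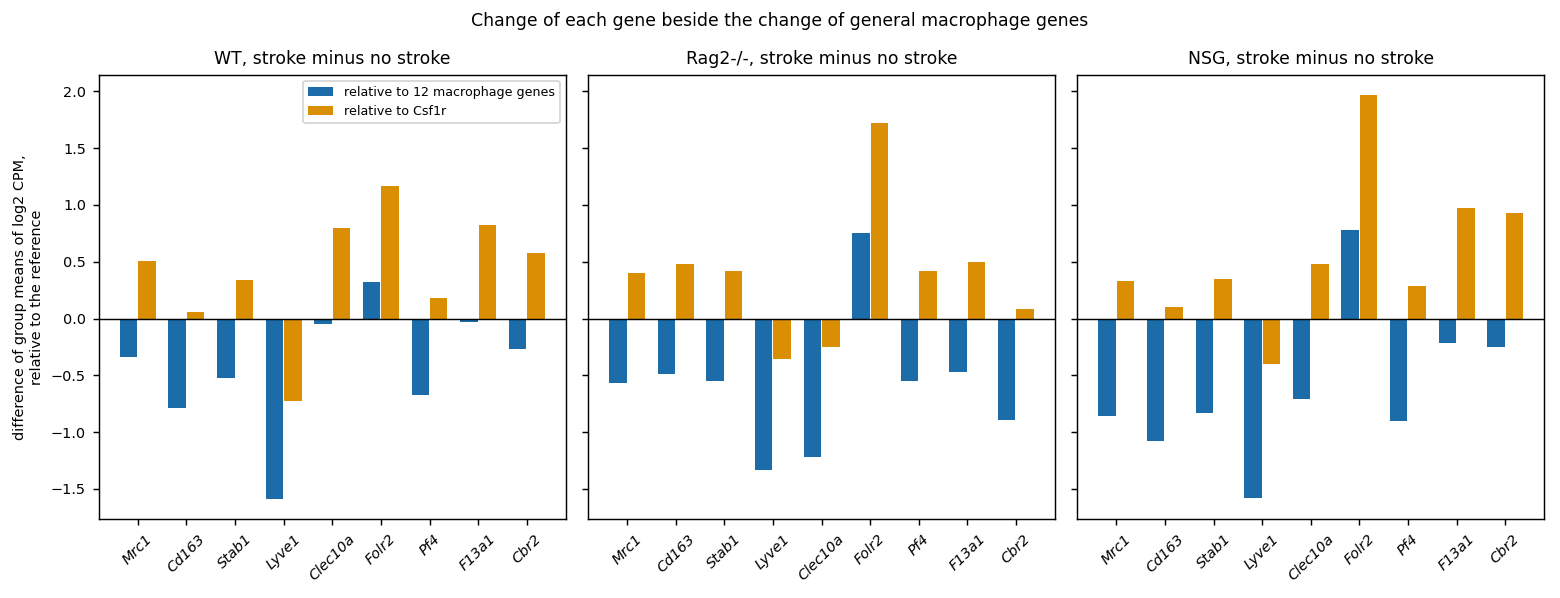
Difference between stroked and non-stroked mice (vertical axis, group means of log2 CPM) after subtracting the mean of 12 general macrophage genes (blue) or Csf1r (orange) in each mouse, for WT, Rag2-/- and NSG mice. Folr2 is positive against both references in all 3 strains, and Lyve1 is negative against both.

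Set beside general macrophage genes, most of the 9 genes had smaller differences between stroked and non-stroked mice in the WT, Rag2-/- and NSG strains. Set beside Csf1r, which is itself in that list, most had larger ones. In WT mice the mean log2 CPM (prior count of 2) of the 12 macrophage genes was 1.89 higher after stroke, and relative to it 8 of 9 genes were lower, with a median of -0.34 over the 9. In Rag2-/- mice 8 of 9 were lower as well (median -0.55). NSG mice gave 8 of 9 too (median -0.83). Folr2 was the exception in all 3, at 0.32, 0.75 and 0.78, each with overlapping ranges. The tacrolimus groups were more evenly split against non-stroked WT mice. Relative to the list, 5 of 9 genes were lower and 4 higher in acute mice (median -0.04) and in delayed mice (median -0.31). Relative to Csf1r, 8 of 9 genes were higher in WT mice (median 0.51). The number was 7 of 9 for Rag2-/- (median 0.42) and 8 of 9 for NSG mice (median 0.35). Lyve1 was lower against both references, by -1.59 against the list and -0.73 against Csf1r in WT mice, without overlap in either case. The direction thus depends on the reference, and these differences carry no test. The prior count shrinks differences of genes with few reads.

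Between mice of the same group the genes tended to go up and down together. After removing group means, Pearson's r of log2 CPM over 29 mice had a median of 0.551 over the 36 pairs, 23 pairs were above 0.5 and 0 below 0. The closest pairs were F13a1 with Cbr2 (0.827), Mrc1 with Cd163 (0.762) and Stab1 with Folr2 (0.758). Lyve1 went least with the others, with a median of 0.243 and 0.0422 for Folr2. These values share libraries, depth and the piece of tissue cut, and are given as a description. Group means were removed but not cohort means, so differences between cohorts within stroked WT and acute mice remain in r. Among other lists, the mean of meningeal fibroblast genes had r of 0.0289 (Lyve1) to 0.842 (Folr2) with the 9 genes and that of general macrophage genes -0.0404 (Lyve1) to 0.706 (Stab1). Neuronal genes had -0.731 (Folr2) to -0.140 (Lyve1).

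**Figure D4:**
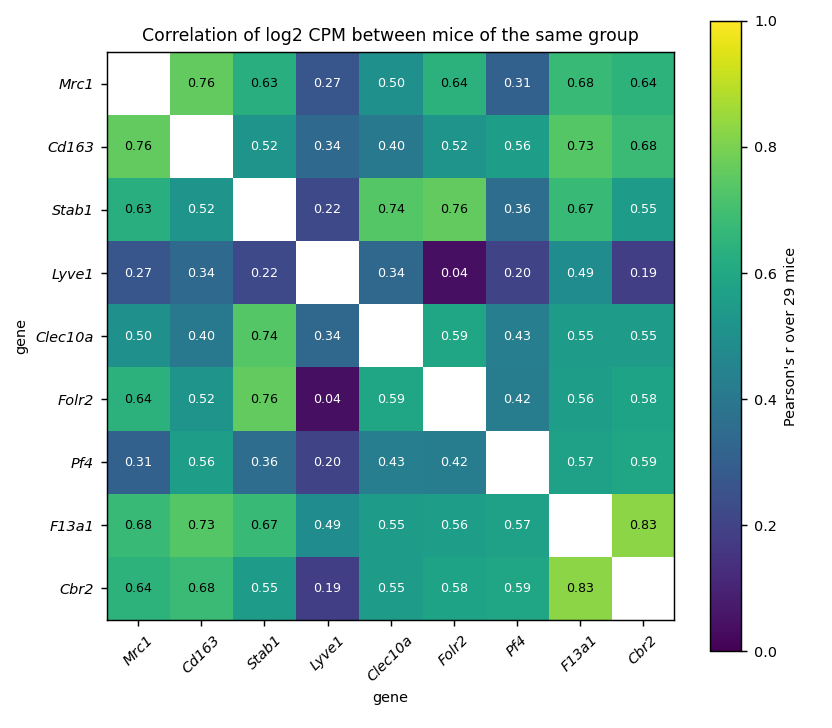
Pearson's r of log2 CPM, after subtracting group means, for each pair of the 9 genes over 29 mice, on a colour scale from 0 to 1. F13a1 with Cbr2 is the brightest pair (0.83), and the row of Lyve1 is the darkest.

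Among all 17030 other genes, those closest to each member by this measure were as follows. For Mrc1 they were Tsku (r = 0.869), Mpzl2 (0.868) and Slc26a7 (0.859), over 29 mice. Slc26a7, an anion exchanger, was also closest to Cd163 (0.808) and, after F13a1, to Cbr2 (0.791). For Stab1 they were Lipa, the lysosomal acid lipase (0.946), Itpripl2 (0.940) and Myof (0.934), and for Folr2 the matrix genes Pcolce (0.920) and Tgfbi (0.896) and Crtap (0.893). For Clec10a they were Plgrkt (0.888), Fcgrt (0.864) and Cybc1 (0.851), and for F13a1, after Cbr2, Slc46a3 (0.786), Slc38a2 (0.785) and Tbx18 (0.783). Pf4 was closest to 0610037L13Rik (0.794) and Lyve1 to Ide (0.703). A member was the closest of all genes for F13a1 and Cbr2, which ranked 1 for each other, while Cd163 had Mrc1 at rank 2 and the nearest member of Stab1, Folr2, stood at rank 483.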

How the data were processed

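The authors sequenced polyA-selected RNA from mouse cortex, and the deposited files hold raw counts of reads per gene for each sample. Libraries were made with a stranded kit. The aligner, genome build and use of strand in counting are not given in the sources used here. Ensembl identifiers were named with GENCODE M21, which held 25712 of 25746, and 34 stayed unnamed. Samples were grouped by their labels, and each sample was taken as a separate animal, as its title names it. Total counts of 17789044 to 43403413 per mouse set the precision, and intervals from counts cover counting error only.

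Counts were filtered with filterByExpr, scaled by TMM and fitted with edgeR 4.0.16 (R 4.3.3) in one quasi-likelihood model of 8 groups and 29 samples, with Benjamini-Hochberg adjustment over 17031 genes. A call needed an adjusted p below 0.05 and a log2 fold change beyond 1. SE is the log2 fold change over the root of the F statistic, and ± marks SE beside fold changes and SD beside means. Log2 CPM used a prior count of 2. The script was tested on simulated data. Alternatives were DESeq2 1.42.0, RLE scaling, no filter, no minimum fold, cohort as a covariate, each cohort alone, only the groups compared, a replicate block and leaving out each mouse. Figures were drawn with matplotlib 3.10.9. The named genes are the 9 members, their closest relatives and the listed genes with the largest called changes, and a few, such as Cd36, Colec12 and Spi1, were picked after their values were seen. The members and lists were chosen with earlier results of these data known.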

Additional observations from a re-analysis of the deposited data

Results flagged for a closer look

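Of 36 sets of 4 or 5 mice checked, 2 held a mouse far from the others of its group, and chance flags about 1 in 20 sets. Cd163 in delayed mouse 5 was at 4.27 CPM, above 2.33 to 2.86 CPM in the other 4 delayed mice. Pf4 in non-stroked WT mouse 5 was at 0.440 CPM, above 0.245 to 0.265 CPM in the other 3.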

How the results depend on the processing

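Of 416 values of single genes under alternatives other than leaving out a mouse, 370 kept their direction and side of the threshold, 41 lost the call, 2 gained it and 3 changed sign. Within the Imm2 cohort Lyve1 was at -0.04 in stroked WT mice, and the fitted difference from controls was -0.19 for Clec10a and -0.16 for Pf4 in acute tacrolimus, a group with 1 mouse in that cohort. The number of the 9 genes called in stroked WT mice was 4 with cohort as a covariate and 3 within Imm2. In acute mice against non-stroked WT mice it was 0 with the covariate, 0 with only the groups compared and 3 with DESeq2, and the 0 within Imm2 comes from 1 acute mouse, assumed to vary like the other groups, and says nothing of stability. In delayed mice against non-stroked WT mice it was 6 with the covariate. In NSG mice it was 2 with only the groups compared. Between delayed and acute mice it was 3 with the covariate, 0 within TF and 0 with only the groups compared. The causes were not tested. The shares of all genes called in these fits, and in those with 1 mouse left out, are not given here. Leaving out 1 mouse gave 7 to 8 calls in WT, 0 to 6 in acute, 8 to 9 in delayed, 0 to 4 in Rag2-/- and 3 to 5 in NSG mice, 0 to 7 between delayed and acute mice and 0 to 1 between acute and stroked WT mice. Of 471 such values of single genes 406 kept their call, 58 lost it, 7 gained it and 0 changed sign.

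With the replicate block, 0 of 9 genes were called in each of the 3 comparisons of non-stroked strains, and 0 without it on the same samples. Deviations of mice with the same number correlated at -0.258 to 0.108, so the numbers were not taken as pairing. Folr2, Clec10a and Pf4 rest on few reads per mouse, which limits their precision most.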
